A study of Mus musculus with 12 samples.

Results

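De novo lipogenesis builds fatty acids from the acetyl-CoA that is left over when sugar is plentiful, and 10 genes of this route were described here: Acly, Acaca, Acacb, Fasn, Scd1, Scd2, Elovl6, Me1, Srebf1 and Thrsp. They were chosen by gene symbol, and all 10 were found among the 39423 genes of the deposited table. The libraries came from 3T3-L1 cells, a mouse preadipocyte line, transfected with a negative control siRNA (NC) or with siRNA against PRMT1 (siPRMT1), an enzyme that dimethylates arginine residues in histones and other proteins. All cells were treated with MDI, the mixture of 3-isobutyl-1-methylxanthine, dexamethasone and insulin that turns this line into adipocytes, for 24 or 72 hours, and 3 libraries were made per condition. The 4 groups were therefore NC at 24 h, siPRMT1 at 24 h, NC at 72 h and siPRMT1 at 72 h, and untreated cells were not analysed here. The siRNA lowered Prmt1 transcripts without removing them, the line is a single immortalized one, and which of the siRNAs named in the study was used for sequencing is not given in the sources used here. Nothing in the labels says whether the 3 libraries of a group came from separate cultures, so p-values measure the spread between these libraries, which may be technical.

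In the cytosol, ATP citrate lyase (Acly) splits citrate into acetyl-CoA and oxaloacetate, and acetyl-CoA carboxylase (Acaca) turns acetyl-CoA into malonyl-CoA. Fatty acid synthase (Fasn) joins these units into palmitate with NADPH, part of which comes from malic enzyme (Me1). Palmitate is then lengthened by Elovl6 and given a double bond by stearoyl-CoA desaturases (Scd1, Scd2), while the transcription factor SREBP-1 (Srebf1) and the small nuclear protein Spot 14 (Thrsp) raise the output of the route. In adipocytes the route is switched on by insulin during differentiation, and its products fill the lipid droplet.

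Library totals ran from 15116462 to 42357137 counts, and a count of 0 in a library allows up to 3 counts, counting error only. Prmt1 had 85.9 ± 4.71 FPKM (fragments per kilobase of gene, scaled by the library total; SD, n = 3) in NC and 41.3 ± 2.61 in siPRMT1 cells at 24 h, and 123.8 ± 15.1 against 67.4 ± 4.92 at 72 h, so every siPRMT1 library carried less of the targeted transcript. NC replicate 3 at 24 h stood apart from the other libraries, with a correlation of log2 expression of 0.987 and 0.989 with its replicates, where the pairs in the other groups reached at least 0.993. Adipocyte markers (Pparg, Cebpa, Fabp4, Adipoq, Plin1, Lpl and Cd36) were detected in every group, and their summed level was 144.7 to 149.9 FPKM in NC and 109.5 to 123.4 in siPRMT1 cells at 24 h. At 72 h it was 2176 to 2348 FPKM in NC and 1698 to 1940 in siPRMT1 cells. The mean of Fabp4, the largest part at 72 h, was 954 ± 68.0 FPKM in NC and 874 ± 107 in siPRMT1 cells. Those of Adipoq were 216.5 and 135, those of Plin1 183 and 113, and the rest were also lower in siPRMT1 cells. At 24 h Adipoq had at most 12 counts in an NC library and 4 in a siPRMT1 library. The summed level of the 5 preadipocyte markers was 900.3 to 1005 FPKM in NC and 884 to 938 in siPRMT1 cells at 24 h, and 447 to 479 against 526 to 602 at 72 h. At 72 h the mean of Col3a1, the most abundant of them, was 247 FPKM in NC and 334 in siPRMT1 cells, while that of Dlk1 was 21.5 against 20.6 and that of Thy1 33.1 against 35.8. Of the defining markers of other cell types, Ptprc (leukocytes) and Myod1 (skeletal muscle) were at 0 in all libraries, and the summed levels of the leukocyte, endothelial and hepatocyte lists stayed at or under 2.86 FPKM in every library. At 72 h Des of the muscle list averaged 6.45 FPKM in NC and 3.80 in siPRMT1 cells, and Krt18 of the epithelial list 2.03 and 0.833.

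Promoter sequences from RefSeq (GRCm38.p6) were found for 8 of the 10 genes, in 11 windows of 300 bases that run from 250 bases before to 50 bases after each transcript start. Scd1 and Scd2 had no entry. The only windows of Acaca and Acacb belong to starts 65761 and 19197 bases inside the outermost start of the gene. The outermost starts of these genes were not searched. The last 150 bases before the start are shown for Fasn and Thrsp, the genes among the 8 that fell most in siPRMT1 cells at 72 h, and for Srebf1 and Me1, whose windows hold the core TCACCC of a sterol regulatory element, the site that SREBP proteins bind. Capitals mark TCACCC, the CCAAT box and the GC box GGGCGG, each on either strand. A box on the other strand appears as its reverse complement, ATTGG or CCGCCC. All are written 5′ to 3′ on the strand of the gene.
Fasn, chr11:120824548-120824697, minus strand: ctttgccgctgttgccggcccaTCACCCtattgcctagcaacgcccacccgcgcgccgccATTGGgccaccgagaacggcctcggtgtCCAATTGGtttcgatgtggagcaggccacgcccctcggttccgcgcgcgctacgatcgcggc
Thrsp, chr7:97417551-97417700, minus strand: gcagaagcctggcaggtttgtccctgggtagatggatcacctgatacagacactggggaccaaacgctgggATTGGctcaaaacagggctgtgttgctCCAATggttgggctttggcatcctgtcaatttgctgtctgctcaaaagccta
Srebf1, window 3, chr11:60210472-60210621, minus strand: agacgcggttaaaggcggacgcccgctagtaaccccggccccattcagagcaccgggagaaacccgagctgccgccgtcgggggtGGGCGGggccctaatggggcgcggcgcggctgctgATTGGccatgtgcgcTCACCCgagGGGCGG
Me1, window 1, chr9:86695915-86696064, minus strand: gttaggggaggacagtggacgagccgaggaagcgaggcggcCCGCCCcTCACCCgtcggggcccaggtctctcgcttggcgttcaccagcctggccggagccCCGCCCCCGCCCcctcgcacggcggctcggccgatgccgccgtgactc

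Searched on both strands, TCACCC stood in 3 of the 11 windows, those of Fasn, Me1 and Srebf1, where 16.2% of all 32851 promoter windows of the same length hold it. In Fasn it lay 128 to 123 bases before the start, and in window 3 of Srebf1, whose start is 12215 bases inside the outermost start of the gene, 15 to 10 bases before it. CCAAT stood in 7 of the 11 windows, against 37.4% of all windows, and Fasn held 3 copies, of which 2 overlap. Thrsp held 2 copies, 79 to 75 and 52 to 48 bases before its start. GGGCGG stood in 4 windows, against 35.7% of all, and TATAAA in 1, that of the inner start of Acacb, against 13.6%. The longer sterol element TCACNCCAC and the palindromic E-box CACGTG were in 0 of the 11 windows, where 1.24% and 7.15% of all windows hold them. A match is a description of these letters and does not show that a factor binds there.

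The levels of the 10 genes spanned a wide range, given here as FPKM, which is per length and so can be compared between genes. Scd2, a desaturase also abundant in brain, was the highest of the 10 in NC cells at 24 h (247.3 ± 16.5 FPKM, SD, n = 3), and Thrsp the lowest (0.113 ± 0.0874). In NC cells at 24 h the order was Scd2, Acly, Scd1, Fasn, Srebf1, Acaca, Me1, Elovl6, Acacb and Thrsp, in which the libraries of Scd1 and Fasn overlapped, as did those of Acaca and Me1. The same order held in siPRMT1 cells at 24 h, with no neighbours overlapping. In NC cells at 72 h Scd1 came first (463.8 ± 19.5), followed by Scd2, Fasn, Acly, Me1, Srebf1, Thrsp, Acaca, Elovl6 and Acacb, and only Thrsp and Acaca overlapped. In siPRMT1 cells at 72 h Scd2 was again first (283.9 ± 17.2), ahead of Scd1, Acly, Fasn, Me1, Srebf1, Acaca, Thrsp, Elovl6 and Acacb, with an overlap of Acly and Fasn alone.

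Together the 10 genes made up 0.152, 0.154 and 0.173% of the summed FPKM of the 3 NC libraries at 24 h and 0.145, 0.145 and 0.141% of that of the siPRMT1 libraries. At 72 h their share was 0.353, 0.360 and 0.332% in NC and 0.225, 0.211 and 0.224% in siPRMT1 cells. The groups did not overlap at either time, and NC replicate 3 was the highest library at 24 h. Scd1 and Scd2 supplied 65.6 to 67.9% of the members' FPKM in NC and 58.5 to 63.7% in siPRMT1 cells at 72 h.

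**Figure D1:**
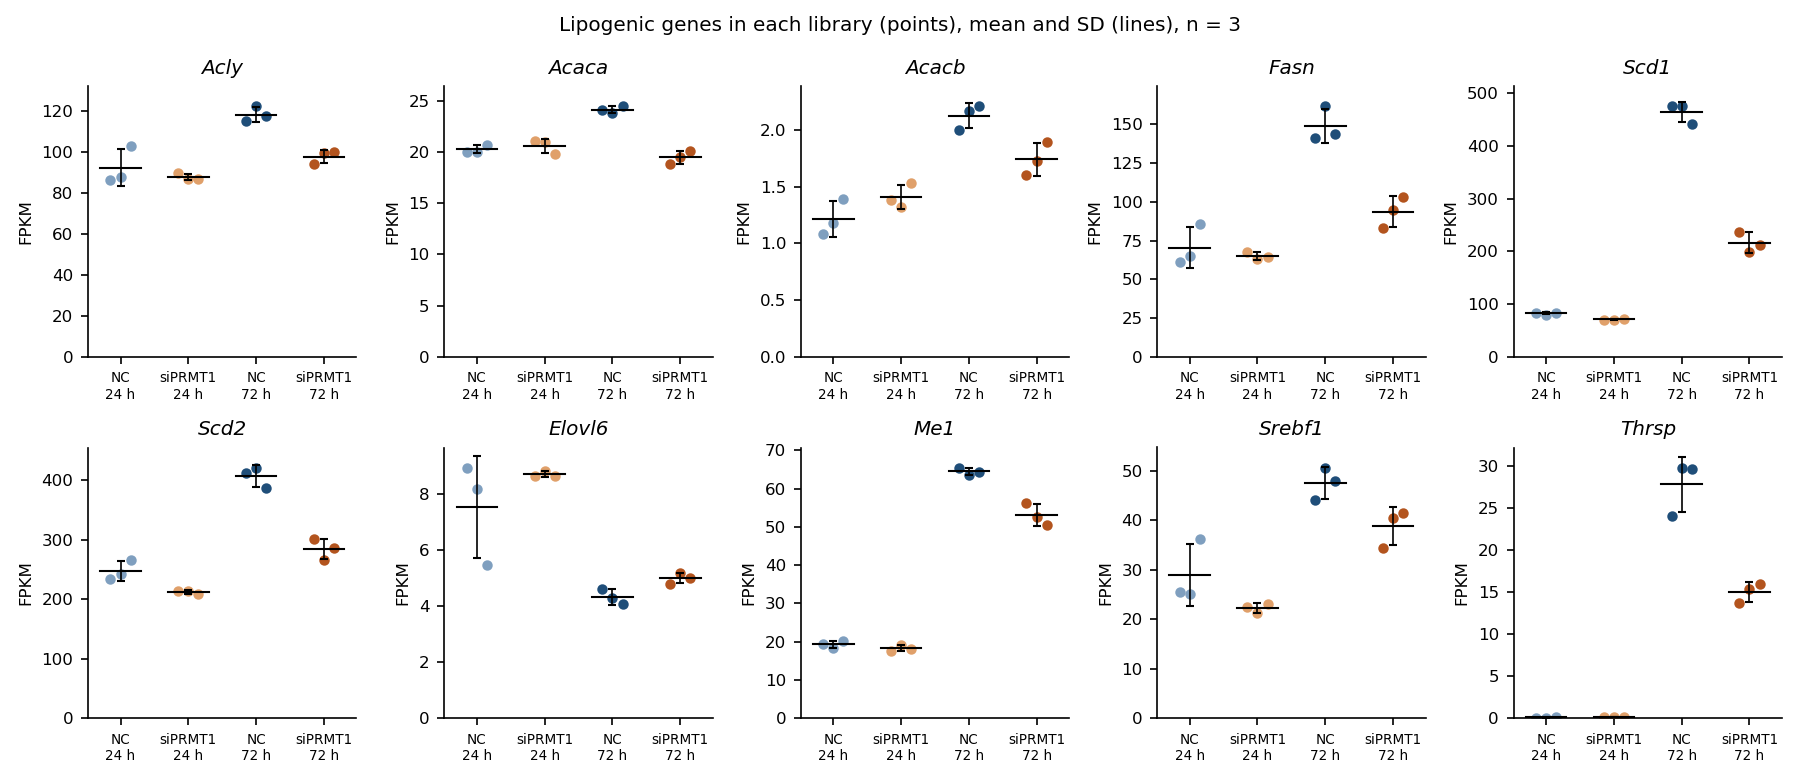
Deposited FPKM of the 10 lipogenic genes (y axis, from 0, a separate scale per gene) in the 12 libraries, grouped by siRNA and hours of MDI on the x axis; points are libraries, horizontal lines are means and bars are SD (n = 3). At 72 h the siPRMT1 libraries lie below the NC libraries for every gene but Elovl6, for which they lie above, and at 24 h Thrsp is near 0 in both groups.

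The comparison of siPRMT1 with NC cells at 72 h asked how the lowering of Prmt1 transcripts bears on the expression of these genes at the later time. Scd1, Thrsp, Fasn and Scd2 fell most in siPRMT1 cells, Scd1 to less than the level of Scd2. Only Elovl6 was higher, without passing the test. Of the 10 genes, 4 were called lower by edgeR's quasi-likelihood test (adjusted p under 0.05 over all genes tested and an absolute log2 fold change over 0.5), where 3.80% of the 14039 genes tested were called lower and 2.84% higher. A further 5 passed the adjusted p with smaller changes, which makes 9 of 10 at any fold change beside 16.5% of all genes. In these 9 the 3 siPRMT1 libraries lay entirely below the 3 NC libraries, as in 18.1% of all genes, and in Elovl6 they lay entirely above, as in 16.8%. The median log2 fold change of the 10 was -0.31, and that of all genes tested was 0.01. In bulk RNA, fewer cells that carry out lipogenesis and less RNA per cell cannot be told apart. The adipocyte and preadipocyte marker sums above moved with this result, and their part in it was not tested.

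Scd1, the main adipocyte desaturase, is at chr19:44394450-44407709 of GRCm38 (minus strand). At 72 h the NC libraries, in the order of replicates 1 to 3 as in all such lists here, had 475, 475 and 441 FPKM, and the siPRMT1 libraries had 237, 198 and 213. The highest siPRMT1 library was thus well below the lowest NC library. The log2 fold change was -1.11 (standard error 0.0790, 95% confidence interval -1.28 to -0.94, edgeR's adjusted p = 6.9e-07), the largest fall of the 10.

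Scd2 is at chr19:44293676-44306864 (plus strand), 87585 bases away from Scd1. Its FPKM at 72 h was 412, 421 and 386 in NC and 300.4, 266 and 285 in siPRMT1 cells. The groups did not overlap, and the change was smaller than that of Scd1, with a log2 fold change of -0.52 (standard error 0.0724, interval -0.68 to -0.37, edgeR's adjusted p = 1.8e-04). This is close to the threshold on the fold change, and without NC replicate 2 or siPRMT1 replicate 2 it was -0.49 and -0.47 and no longer called. Between 4.01 and 4.66% of the 50-base stretches of the Scd1 and Scd2 transcripts also occur in each other, Scd3 or Scd4, and how reads in them were counted is not given in the sources used here.

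The ratio of Scd2 to Scd1 FPKM follows from both genes within a library. At 24 h it was 2.80, 3.03 and 3.18 in NC and 3.05, 3.03 and 2.91 in siPRMT1 libraries, so the groups overlapped (two-sided exact permutation p = 1). At 72 h it was 0.868, 0.886 and 0.875 in NC and 1.27, 1.34 and 1.34 in siPRMT1 libraries. Scd2 was thus the lesser desaturase in all 3 NC libraries and the greater in all 3 siPRMT1 libraries, a log2 difference of 0.59. The exact permutation p was 0.1, the smallest that 3 against 3 can give, and 0.4 after Benjamini-Hochberg adjustment over the 4 ratio comparisons.

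**Figure D2:**
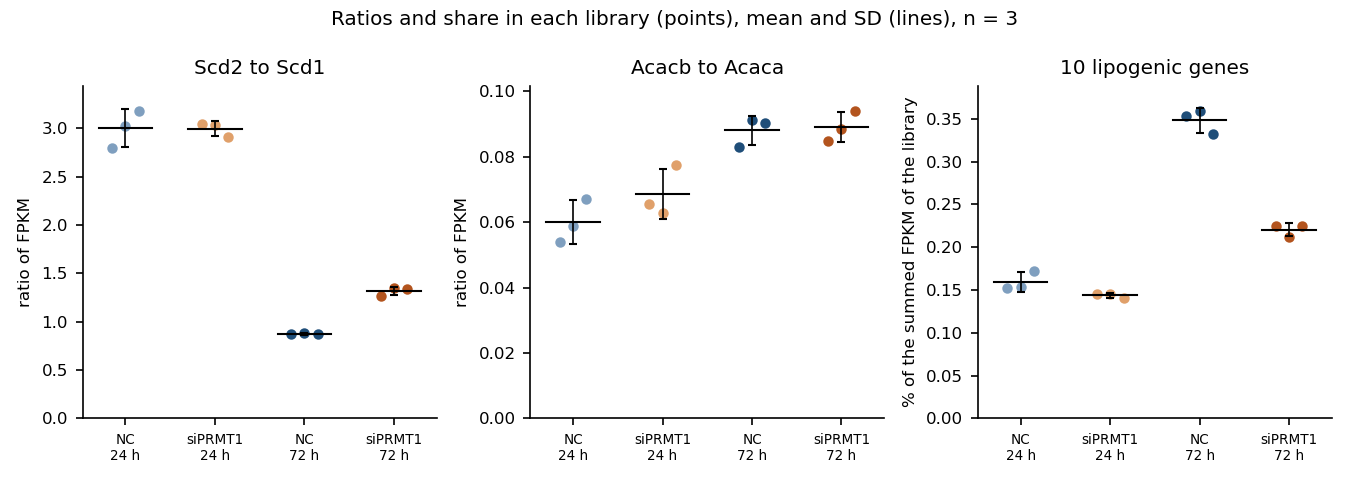
Ratio of Scd2 to Scd1 FPKM (left), ratio of Acacb to Acaca FPKM (middle) and share of the 10 genes in the summed FPKM of a library in percent (right), each from 0, by siRNA and hours of MDI; points are libraries, lines are means and bars are SD (n = 3). The Scd2 to Scd1 ratio is near 3 in both groups at 24 h and 0.876 ± 0.0093 in NC against 1.32 ± 0.0434 in siPRMT1 cells at 72 h, while the Acacb to Acaca ratio overlaps between NC and siPRMT1 at both times.

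Fasn, the enzyme that makes palmitate, is at chr11:120805958-120824547 (minus strand). Its FPKM at 72 h was 141, 162 and 144 in NC and 83.2, 94.8 and 103 in siPRMT1 cells. No siPRMT1 library reached the lowest NC library, and the log2 fold change was -0.68 (standard error 0.0852, interval -0.86 to -0.49, edgeR's adjusted p = 7.3e-05). It was called in all 6 fits without 1 library, at -0.76 to -0.60. The promoter of this gene, shown above, is the one with TCACCC and 3 CCAAT copies.

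Thrsp, which encodes Spot 14, is at chr7:97412933-97417550 (minus strand). Its FPKM at 72 h was 24.1, 29.8 and 29.6 in NC and 13.7, 15.4 and 15.9 in siPRMT1 cells. The groups were separate, with a log2 fold change of -0.90 (standard error 0.104, interval -1.12 to -0.67, edgeR's adjusted p = 3.6e-05). At 24 h the gene was barely detected, with 4, 1 and 5 counts in NC and 3, 5 and 3 counts in siPRMT1 libraries, and edgeR's filter on low counts left it out. The ratio of its summed counts in siPRMT1 to NC at 24 h, corrected for depth, was 1.26 with a 95% counting interval from 0.484 to 3.30, so a difference at 24 h was not detectable at this depth.

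Among the members, Acly and Me1, which supply acetyl-CoA and NADPH to fatty acid synthase, had smaller fold changes than Fasn at 72 h. This difference between members was not tested. Acly, at chr11:100476352-100528000, had 115, 122 and 117 FPKM in NC and 94.0, 99.2 and 99.6 in siPRMT1 cells at 72 h. Its log2 fold change was -0.28 (standard error 0.0666, edgeR's adjusted p = 0.0092). Me1, at chr9:86581363-86695914, had 65.5, 63.7 and 64.4 FPKM in NC and 56.3, 52.6 and 50.4 in siPRMT1 cells, with -0.29 (standard error 0.0683, adjusted p = 0.0097). In both genes every siPRMT1 library was below every NC library, and both changes were under the threshold on the fold change. For Me1, 32.8% of the 50-base stretches of its transcript also occur in annotated copies such as Gm7049 and Gm48795, which are not listed in the count table, so its count may depend on how reads with several places were treated.

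Acetyl-CoA carboxylase has a cytosolic form, Acaca, which feeds synthesis, and a mitochondrial form, Acacb, whose malonyl-CoA restrains fatty acid oxidation. Acaca, at chr11:84129677-84401651, had 24.1, 23.8 and 24.5 FPKM in NC and 18.8, 19.5 and 20.1 in siPRMT1 cells at 72 h. The groups were far apart for their spread, with a log2 fold change of -0.32 (standard error 0.0640, interval -0.45 to -0.18, edgeR's adjusted p = 0.0033). A copy of this transcript in the genome, Gm5182, shares 52.6% of its 50-base stretches and is not listed in the count table, so the level of Acaca carries the same doubt as that of Me1. Acacb, at chr5:114146321-114250761, was the lowest of the members at 72 h, at 2.0, 2.17 and 2.21 FPKM in NC and 1.60, 1.73 and 1.89 in siPRMT1 cells. Its log2 fold change was -0.29 (standard error 0.0957, edgeR's adjusted p = 0.0474), and with 1 library left out its adjusted p reached 0.141. The ratio of Acacb to Acaca was 0.0881 ± 0.0045 in NC and 0.0892 ± 0.0046 in siPRMT1 cells at 72 h (SD, n = 3, two-sided exact permutation p = 0.8), and at 24 h it was 0.0600 ± 0.0067 and 0.0686 ± 0.0077 (exact permutation p = 0.3).

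Srebf1, which encodes the SREBP-1 transcription factors, is at chr11:60199084-60222686 (minus strand). Its FPKM at 72 h was 44.1, 50.7 and 47.9 in NC and 34.5, 40.5 and 41.5 in siPRMT1 cells. The groups were separate by a narrow margin, with a log2 fold change of -0.30 (standard error 0.0822, edgeR's adjusted p = 0.0211, up to 0.0983 with 1 library left out). The counts cover the gene as a whole, so the share of its alternative starts was not measured.

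Elovl6, the elongase that makes stearate from palmitate, is at chr3:129532386-129638495. It was the one member with more transcript in siPRMT1 cells at 72 h, at 4.81, 5.18 and 5.02 FPKM against 4.62, 4.30 and 4.07 in NC cells. The groups did not overlap, but the log2 fold change of 0.20 (standard error 0.0829, interval 0.03 to 0.38) did not pass the test (edgeR's adjusted p = 0.107).

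At 24 h, when the cells were in the early phase of differentiation, differences were small. Of the 9 members tested, 0 were called by edgeR, beside 3.56% of the 13689 genes tested, and DESeq2 and limma called 0 as well. The number with an unadjusted p under 0.05 in edgeR was 3 of 9, against 24.6% of all genes. Scd1 and Scd2 passed the adjusted p at a smaller fold change, as 7.60% of all genes did, and 3 of the 9 had all siPRMT1 libraries below all NC libraries, against 16.0%. The median log2 fold change was -0.13, and that of all genes was 0.01.

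Scd1 at 24 h had 83.6, 80.1 and 83.5 FPKM in NC and 70.1, 70.5 and 71.7 in siPRMT1 cells, a log2 fold change of -0.27 (standard error 0.0530, interval -0.39 to -0.15, edgeR's adjusted p = 0.0226). Scd2 had 234, 242 and 266 against 214, 214 and 209, also -0.27 (standard error 0.0561, adjusted p = 0.0264). Both desaturases were thus lower in every siPRMT1 library by a like amount. With 1 library left out, their adjusted p reached 0.0985 and 0.110.

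Srebf1 at 24 h had 25.5, 25.2 and 36.2 FPKM in NC and 22.5, 21.2 and 23.1 in siPRMT1 cells. All siPRMT1 libraries were lower, but NC replicate 3 was far above the other two, and the log2 fold change of -0.42 (interval -0.73 to -0.12) did not pass the test (edgeR's adjusted p = 0.0913). Without that library it was -0.24, with an adjusted p of 0.0066.

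Fasn (61.1, 65.0 and 85.5 FPKM in NC, 67.9, 63.2 and 64.4 in siPRMT1 cells) and Acly (86.0, 87.8 and 102.8 against 89.5, 86.6 and 86.8) were also highest in NC replicate 3, and their groups overlapped. Their log2 fold changes of -0.16 (interval -0.42 to 0.09) and -0.12 (-0.29 to 0.05) became -0.01 and -0.05 without it. Elovl6 was lowest in that library, at 5.48 FPKM against 8.95 and 8.18 in the other NC and 8.65 to 8.83 in the siPRMT1 libraries, and its log2 fold change of 0.15 turned to -0.04 without it. Acaca, Acacb and Me1 had log2 fold changes of -0.03, 0.17 and -0.13, with intervals from -0.17 to 0.11, from -0.10 to 0.43 and from -0.29 to 0.04. For these 3 genes the groups overlapped and no difference passed the test.

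**Figure D3:**
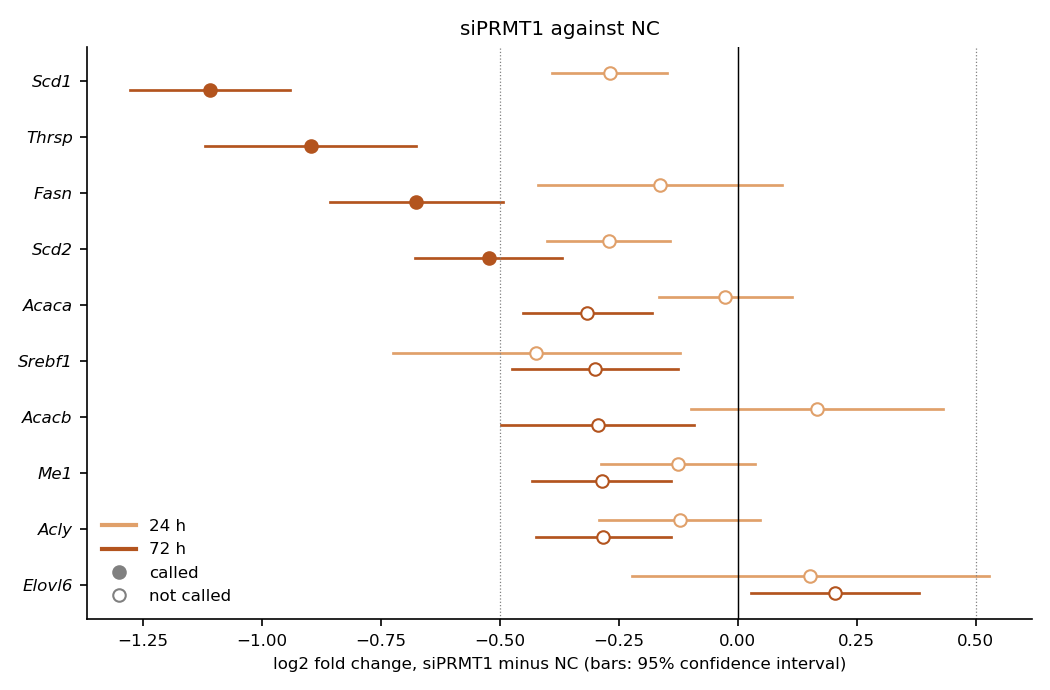
Log2 fold change of each lipogenic gene in siPRMT1 against NC cells (x axis) at 24 and 72 h, with 95% confidence intervals as bars; filled points are called by edgeR, open points are not, and dotted lines mark the threshold on the fold change. The 4 filled points are Scd1, Thrsp, Fasn and Scd2 at 72 h, and no point at 24 h is filled (Thrsp was not tested there).

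Between 24 and 72 h of MDI, NC cells raised most of the route. Thrsp, Scd1, Me1, Fasn, Acacb, Srebf1 and Scd2 were called higher at 72 h, which is 7 of the 10 members beside 22.7% of the 13829 genes tested, and Elovl6 was called lower, beside 20.4%. The median log2 fold change of the members was 0.69, against 0.00 for all genes. NC libraries at 24 and 72 h also serve in the comparisons above, so these values are not independent of them. The preadipocyte and adipocyte marker sums changed over the same interval, as given above, and their part in this result was not tested.

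Thrsp went from 10 counts in the 3 NC libraries at 24 h to 1809 at 72 h, a ratio of 260.4 after correction for depth (95% counting interval 141 to 544). Scd1 rose from 82.4 ± 2.0 to 463.8 ± 19.5 FPKM (SD, n = 3), which edgeR put at 2.42 on the log2 scale (adjusted p = 4.3e-09). The NADPH source Me1 rose from 19.3 ± 0.874 to 64.5 ± 0.920 FPKM, a log2 fold change of 1.67 (adjusted p = 1.1e-07), and Fasn from 70.5 ± 13.1 to 149 ± 11.2, a log2 fold change of 1.01 (adjusted p = 7.3e-05). These 4 genes had the largest rises of the 10.

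Acacb, Srebf1 and Scd2 rose by 0.74, 0.65 and 0.65 on the log2 scale. Acly and Acaca passed edgeR's adjusted p (0.0168 and 0.0463) at log2 fold changes of only 0.29 and 0.18, the smallest of the 10 members. All 10 members passed the adjusted p at some fold change, as 58.9% of all genes did. Elovl6 fell from 7.54 ± 1.82 to 4.33 ± 0.276 FPKM (log2 fold change -0.87, edgeR's adjusted p = 0.0011), with all 72 h libraries below all 24 h libraries. Without NC replicate 3 at 24 h, the same number of members (8) was called, with Fasn at 1.17 and Elovl6 at -1.06.

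In siPRMT1 cells, Thrsp, Scd1, Me1, Srebf1 and Fasn were called higher at 72 h than at 24 h, 5 of 10 beside 19.0% of 14224 genes, and Elovl6 was called lower, beside 17.4%. Thrsp went from 11 to 1200 counts, a ratio of 112 (counting interval 62.5 to 226). Scd1, Me1 and Srebf1 rose by 1.60, 1.52 and 0.79 on the log2 scale, and Fasn by 0.51, which was no longer over the fold threshold without siPRMT1 replicate 2 or 3 at 24 h, at 0.49 in both fits, or replicate 3 at 72 h, at 0.43. Scd2, Acacb and Acly passed the adjusted p at 0.41, 0.29 and 0.14, as 63.4% of all genes did at any fold change. Acaca was 20.6 ± 0.717 FPKM at 24 h and 19.5 ± 0.621 at 72 h (SD, n = 3), its groups overlapped, and the log2 fold change of -0.09 (interval -0.22 to 0.03) did not pass edgeR's test (adjusted p = 0.162).

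Taken as differences of mean FPKM, the rise of Fasn in siPRMT1 cells was 36.5% of that in NC cells, and those of Acly, Acacb and Scd2 were 38.4%, 36.3% and 45.1%. For Thrsp it was 53.6%, for Me1 76.9% and for Srebf1 88.7%. Scd1 rose by 381 FPKM in NC and by 145 FPKM in siPRMT1 cells, and Acaca was 3.88 FPKM higher at 72 h than at 24 h in NC cells whereas the difference was -1.13 FPKM in siPRMT1 cells. These percentages depend on the level at 24 h: the ratio of mean FPKM at 72 h to 24 h for Srebf1 was 1.64 in NC and 1.74 in siPRMT1 cells. Differences between members were not tested.

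**Figure D4:**
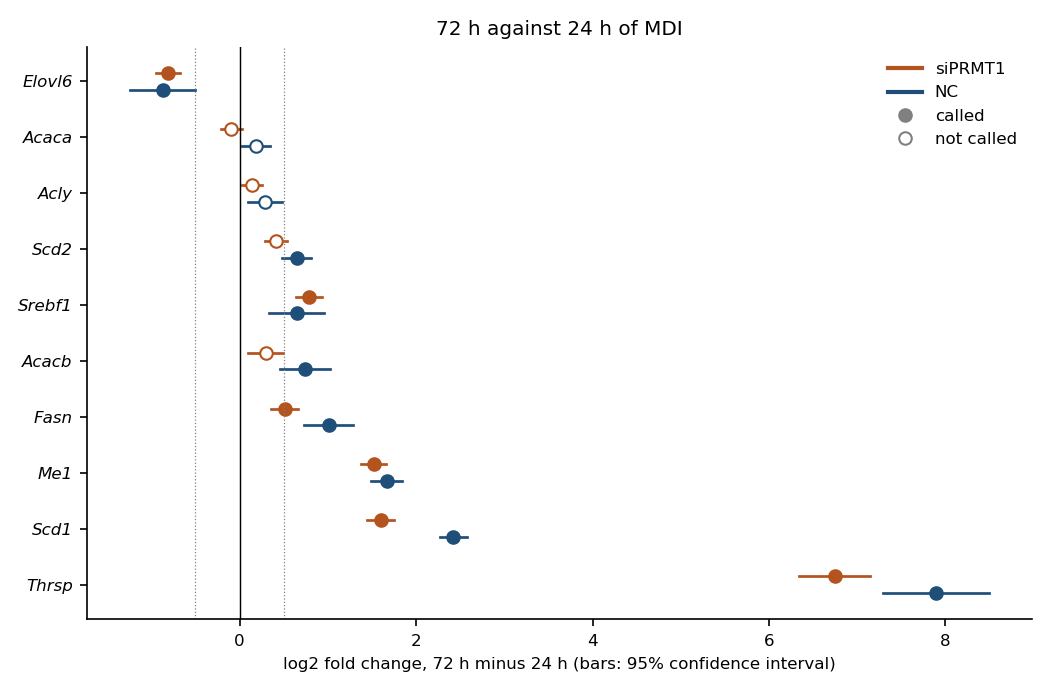
Log2 fold change of each lipogenic gene from 24 to 72 h of MDI (x axis) in NC and in siPRMT1 cells, with 95% confidence intervals as bars; filled points are called by edgeR, open points are not, and dotted lines mark the fold threshold. NC points lie to the right of siPRMT1 points for 8 of the 10 genes, Srebf1 and Elovl6 being the exceptions, and Thrsp is far from the rest at 7.89 and 6.75.

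Whether the change over time differed between the siRNAs was tested as an interaction over all 12 libraries. Scd1 was the 1 member called, with a log2 difference of -0.82 between its change in siPRMT1 and in NC cells (standard error 0.0942, interval -1.02 to -0.62, edgeR's adjusted p = 7.8e-05), beside 3.47% of the 14612 genes called lower and 4.77% called higher. It was called in all 12 fits without 1 library, at -0.90 to -0.76. Acaca passed the adjusted p at -0.27 (standard error 0.0818, adjusted p = 0.0442), as 12.3% of all genes did at any fold change, and with 1 library left out its adjusted p reached 0.123. Fasn (-0.49, interval -0.83 to -0.15, adjusted p = 0.0583) and Acacb (-0.44, interval -0.77 to -0.11, adjusted p = 0.0777) did not pass. Without NC replicate 3 at 24 h both were called, at -0.68 and -0.57, and 3 members were called in all, and Fasn was also called without siPRMT1 replicate 3 at 72 h, at -0.56. Thrsp, with few counts at 24 h, had a wide interval from -2.41 to 0.12 around -1.15 and did not pass (adjusted p = 0.231).

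For Scd2 the interaction was -0.23 (interval -0.43 to -0.03, edgeR's adjusted p = 0.124). Me1 and Acly were at -0.14 and -0.14, Srebf1 at 0.15 (interval -0.22 to 0.52) and Elovl6 at 0.07 (-0.32 to 0.46), none of which passed. The median of the 10 was -0.25, against 0.02 for all genes.

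The genes around the route were taken from 6 lists with 67 genes, of which 66 were in the table. At 24 h, 4 of 61 tested were called lower and 0 higher. The 4 were Mdh1, the cytosolic malate dehydrogenase (log2 fold change -0.70), and the transcription factors Cebpa (-0.88), Nr1h3 (-0.64) and Pparg (-0.52). Nr1h3 encodes the oxysterol receptor LXRα. The calls of Cebpa and Nr1h3 were lost in 3 and 4 of the 6 fits without 1 library. That of Pparg was lost without NC replicate 3, at -0.48, and in the 3 limma fits on FPKM, at -0.45, -0.47 and -0.45. The shares of all genes called lower and higher were 1.61% and 1.95%. Adipocyte markers include Pparg and Cebpa, so their marker sum is not separate from this count.

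At 72 h, 8 of 63 tested were called lower and 0 higher, where the shares of all genes were 3.80% and 2.84%. The sign was negative for 53 of these 63 list genes, beside 48.7% of all genes, and the median of the lists was -0.20. In the supply of acetyl-CoA and NADPH, the mitochondrial citrate carrier Slc25a1 went from 20.2 ± 0.826 to 12.8 ± 1.91 FPKM (log2 fold change -0.66), and the pentose phosphate enzyme transketolase, Tkt, from 141 ± 4.92 to 91.0 ± 7.04 (-0.64). In elongation and desaturation, Elovl4 (-1.29), Scd3 (-0.65) and Elovl3 (-0.56) fell, all from levels under 7 FPKM.

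Among the regulators, Insig1, which holds SREBP precursors in the endoplasmic reticulum and is itself an SREBP target, went from 56.8 ± 1.89 to 33.0 ± 0.265 FPKM at 72 h (-0.79, edgeR's adjusted p = 2.3e-06). Nr1h3 went from 42.9 ± 2.15 to 27.6 ± 1.90 (-0.64). Mlxipl, which encodes the carbohydrate response factor ChREBP, was called at -1.63 but rested on 8 to 12 counts in NC and 3 to 5 in siPRMT1 libraries, and its call was lost without siPRMT1 replicate 2. The list on the control of acetyl-CoA carboxylase and fatty acid synthase had 0 of 9 called and 3 lower at any fold change, and mitochondrial fatty acid synthesis, a separate route, 0 of 6 called and 1 lower at any fold change, in edgeR at 72 h. Their medians were -0.19 and -0.21. Among all genes tested at 72 h, 16.5% had an adjusted p under 0.05, lower or higher, and neither list was tested against this share.

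**Figure D5:**
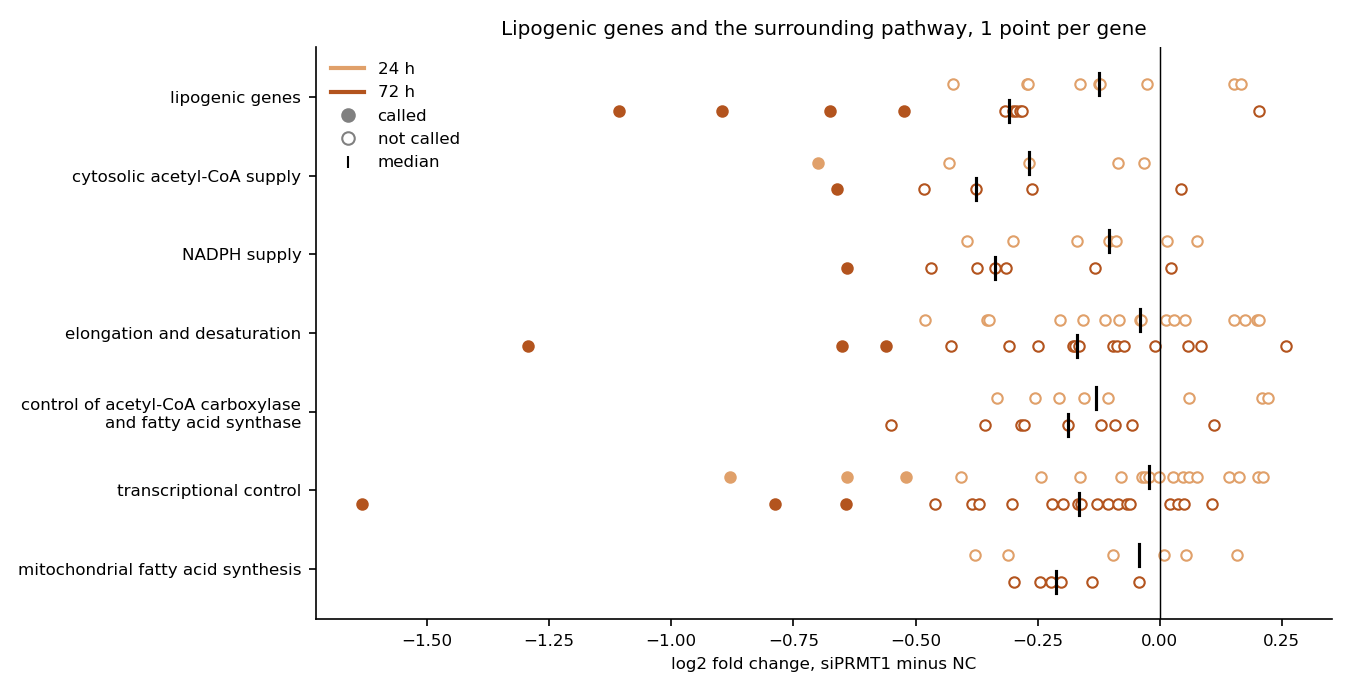
Log2 fold change in siPRMT1 against NC cells (x axis) of the 10 lipogenic genes and of the genes of 6 surrounding lists, 1 point per gene tested, at 24 and 72 h; filled points are called by edgeR and black ticks are medians. At 72 h the median is -0.31 for the lipogenic genes and between -0.38 and -0.16 for the 6 lists, and every filled point lies below 0.

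From 24 to 72 h, 36 of 64 of these genes were called higher and 2 lower in NC cells, where 22.7% of all genes were called higher and 20.4% lower. In siPRMT1 cells it was 31 higher and 3 lower, where 19.0% and 17.4% of all genes were. In NC cells all 5 acetyl-CoA supply genes were called higher. Among them Slc25a1 rose by 2.12 and the pyruvate carboxylase Pcx by 2.09 on the log2 scale. Of the NADPH genes, 5 of 7 were called higher, led by transaldolase, Taldo1, at 1.56. All 7 were higher at an adjusted p under 0.05, where 58.9% of all genes passed in either direction. Nr1h3, Insig1 and Pparg rose by 3.93, 2.17 and 2.01. In siPRMT1 cells Pcx rose by 2.05, Taldo1 by 1.74, Nr1h3 by 3.95 and Pparg by 2.24.

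The interaction was called for 5 of 65 genes of the lists, 4 lower and 1 higher, where 3.47% of all genes were called lower and 4.77% higher, so the share is near the background. It was negative for Elovl4 (-1.45), Insig1 (-0.77), Pgd (-0.52) and Tkt (-0.52), and positive for Mdh1 (0.76), whose FPKM was 112 ± 3.48 against 71.6 ± 3.37 at 24 h and 202 ± 28.1 against 209 ± 20.0 at 72 h in NC and siPRMT1 cells. The calls of Pgd and Tkt, both of the pentose phosphate pathway, were lost in 7 and 6 of the 12 fits without 1 library.

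Over the 12 libraries the members varied together to different degrees, which is given as a description, since the libraries share 4 conditions. The highest correlation of log2 CPM (counts scaled to the library total) between members was that of Me1 and Thrsp (r = 0.992). Elovl6 ran against the rest, from r = -0.366 with Acaca to -0.946 with Thrsp. Acaca followed Thrsp (r = 0.278) and Me1 (0.309) only weakly. The median standardized level of the members, in SD units, was -0.742, -0.764 and -0.075 in NC and -0.882, -0.985 and -1.01 in siPRMT1 libraries at 24 h, and 1.11, 1.41 and 1.29 against 0.041, 0.189 and 0.371 at 72 h. NC replicate 3 was again the library nearest to the 72 h levels among those of 24 h. Among 12458 genes with at least 1 CPM on average, those whose pattern was most like it were Tst (r = 0.991), Fam83h (0.991), Rab3d (0.990), Gys1 (0.989), which encodes glycogen synthase, and Lrrc8d (0.988).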

How the data were processed

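The 12 mRNA libraries were made with the MGIEasy mRNA Library Prep Kit. Per the submitters' processing notes, the tools were cutadapt 1.11, HISAT2 2.1.0 and RSEM 1.2.6 with build mm10. The counting tool's settings, the strand setting and the treatment of reads with several places are not given in the sources used here. The authors deposited raw counts per gene, without normalization, and FPKM, which recomputation from the counts, gene length and library total matched to within 0.005. Positions are those of the deposited table (GRCm38).

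Counts were compared with edgeR 4.0.16 (R 4.3.3; quasi-likelihood test, TMM, filterByExpr, Benjamini-Hochberg over all genes tested). Calls needed both an adjusted p under 0.05 and a log2 fold change beyond 0.5 in size. The knockdown and time comparisons used only the 6 libraries concerned, and the interaction used all 12. Standard errors were derived from the F statistic. Overlap between groups was read from TMM-normalized CPM. Ratios of FPKM were compared with two-sided exact permutation tests (scipy 1.17.1). Alternatives were DESeq2 1.42.0, RLE normalization, no filter, at least 10 counts in every library, no fold threshold, the replicate block, a single model of all libraries, limma 3.58.1 on log2(FPKM + 1) with a mean FPKM of 1 as filter, on log2(FPKM + 0.1) and without filter, and each library left out. For the ratios, TMM-normalized counts per kilobase replaced FPKM. The scripts were tested on simulated data. Shared 50-base stretches were counted against GENCODE M21 transcripts, and promoters are from RefSeq (GRCm38.p6).

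Genes named are the 10 members, Prmt1, up to 3 called genes with the smallest p per list and comparison, and the 5 most like the members' median. Des and Krt18 were named after their values were seen. The members, lists and tests were chosen with earlier results of these data known. Intervals and floors cover counting error only where they are from counts.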

Additional observations from a re-analysis of the deposited data

Results flagged for a closer look

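For 2 of the 10 members the change from 24 to 72 h differed between siPRMT1 and NC cells at any fold change. The test was edgeR's interaction of siRNA and time (adjusted p under 0.05), which 12.3% of all 14612 genes tested passed. Scd1 had a difference of -0.82 on the log2 scale (-0.818, adjusted p = 7.8e-05), with a rise of 2.42 in NC and 1.60 in siPRMT1 cells, and all 3 siPRMT1 libraries were below all 3 NC libraries at both times. Acaca had a difference of -0.27 (-0.269, adjusted p = 0.0442), with 0.18 in NC and -0.09 in siPRMT1 cells, which is under the threshold on the fold change. With 1 library left out, its adjusted p in edgeR reached 0.123. Among the alternative fits with edgeR, DESeq2 or limma it reached 0.303.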

How the results depend on the processing

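Without the fold threshold, 2 members were called at 24 h in place of 0, and 9 in place of 4 at 72 h. In the interaction it was 2 in place of 1. For the surrounding lists it was 9 of 61, 25 of 63 and 8 of 65 genes in place of 4, 8 and 5. Of all genes, 7.60%, 16.5% and 12.3% passed, so the 8 of 65 in the interaction are near the background. The shares of all genes called in the other fits, including those without 1 library, are not given here or above. The counts from those fits are therefore not read against a background. At 24 h, limma on log2(FPKM + 1) called 2 genes of the lists, and 1 without a filter. In the interaction, 2 members were called by DESeq2, with at least 10 counts in every library and by limma without a filter, and 3 by limma with either pseudocount; the added genes were Fasn and Thrsp. With each library left out, 3 to 4 members were called at 72 h and 1 to 3 in the interaction, and of the lists 2 to 4 at 24 h and 3 to 11 in the interaction. The log2 difference of Acacb to Acaca at 72 h then ran from -0.024 to 0.053 and that of Scd2 to Scd1 at 24 h from -0.05 to 0.042, while that of Scd2 to Scd1 at 72 h stayed at 0.573 to 0.615. Among single genes, Acaca at 24 h turned to 0.022, 0.023 and 0.022 and the interaction of Elovl6 to -0.037, -0.031 and -0.037 with limma on log2(FPKM + 1), log2(FPKM + 0.1) and without filter. With each library left out, Elovl6 ran from -0.038 to 0.302 at 24 h and from -0.075 to 0.223 in the interaction, and Srebf1 from -0.077 to 0.237 in the interaction. The calls of Scd1, Thrsp and Fasn at 72 h were kept under every alternative run. The cause of these shifts was not tested.

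Same-numbered libraries did not deviate together (correlations of -0.169 to 0.216), so the number was not taken as a pairing. With the replicate block, 2 members were called in the interaction in place of 1, Fasn being added at -0.508. The counts of members called at 24 h, at 72 h and over time were as without the block. The share of all genes called with it is not given here.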
